A study of Homo sapiens with 18 samples.

Results

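The comparison described here was 3D culture against 2D culture of MCF10A cells at timepoint 2, the middle of 3 timepoints. Its members were chosen by their labels as the 3 libraries of 3D culture and the 3 libraries of 2D culture collected at that timepoint, 6 of the 18 libraries of the series, and libraries with the same replicate number were treated as a pair. MCF10A is an immortalised, non-malignant human breast epithelial line. Cells of both groups were plated sparsely on soft polyacrylamide gels coated with Matrigel, an extract of basement membrane rich in laminin, in a growth medium with horse serum, EGF, insulin, cholera toxin and hydrocortisone. In the 2D group this medium was renewed after attachment, and in the 3D group the renewed medium held 2% Matrigel, which sets around the cells. Harvests were listed at 3, 12 and 21 h after plating, so timepoint 2 was matched to 12 h by order alone. Poly-A RNA was read in single-end mode. Each replicate number carries a date that all groups share, but the labels do not say that replicates were separate cultures. The p-values measure the spread left among the 17 fitted libraries after group and replicate number are accounted for. That spread may be technical. Because only 1 cell line in 1 medium was used, agents such as EGF, hydrocortisone and cholera toxin acted in both groups and the comparison does not separate their effects from that of the matrix.

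Breast epithelial cells hold to a basement membrane through integrins and to each other through tight junctions, adherens junctions and desmosomes, and a set of transcription factors that includes ELF3 and GRHL3 maintains that barrier programme. In basement membrane gels MCF10A cells are known for growing into hollow, polarised spheres, whereas on an uncovered surface they spread as a sheet. Freshly plated cells also pass through a stress and growth factor response, re-enter the cell cycle and rebuild their protein synthesis and secretory machinery, all of which can be read from messenger RNA.

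At timepoint 2 the cells in 3D held less RNA of tight junction, desmosome and epithelial transcription factor genes and more RNA of DNA replication, mitosis, ribosomal protein and nuclear-encoded respiratory chain genes than the cells in 2D, while respiratory chain genes of the mitochondrial genome were lower in 3D. Of 18592 genes tested with edgeR's quasi-likelihood F test, with the replicate number as a block, 2949 passed an adjusted p of 0.05 (15.9%). These were 1674 genes that rose (9.0%) and 1275 that fell (6.86%), where rose and fell always describe 3D relative to 2D. These 2 shares stand as the background for the counts of each list below. Most changes were modest, since 927 of the calls were below 1.5-fold and 659 reached 2-fold (3.54% of the genes tested), 278 of them higher and 381 lower. The median log2 fold change over all genes tested was -0.04. Of the 2949 genes, 2947 moved in 1 direction in all 3 pairs, which a test blocked on these pairs favours. In 2331 of the 2949 the CPM values did not overlap between the groups. Over all genes tested, 2758 (14.8%) were higher and 2408 (13.0%) lower in 3D without overlap. CPM, counts scaled by TMM to libraries of one size, is the level used throughout, with libraries given in the order of replicates 1, 2 and 3. It can be compared between libraries for 1 gene and not between genes. Scaled by the library totals of the file headers instead of TMM, 914 genes rose and 2863 fell, and the median over all genes was -0.236. Without the block 277 genes passed (131 higher, 0.705%, and 146 lower, 0.785%), and 808 passed in an unblocked fit of the 6 libraries alone. Where a named gene lost its call without the block or without 1 library, the edgeR adjusted p of that fit stands in parentheses after its name, and the highest one where several left-out libraries ended the call. The count was 1048 without 2D replicate 1, 1004 without 2D replicate 3, 1294 without 3D replicate 1, 1690 without 3D replicate 2, 2680 without 2D replicate 2 and 2412 without 3D replicate 3.

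**Figure D1:**
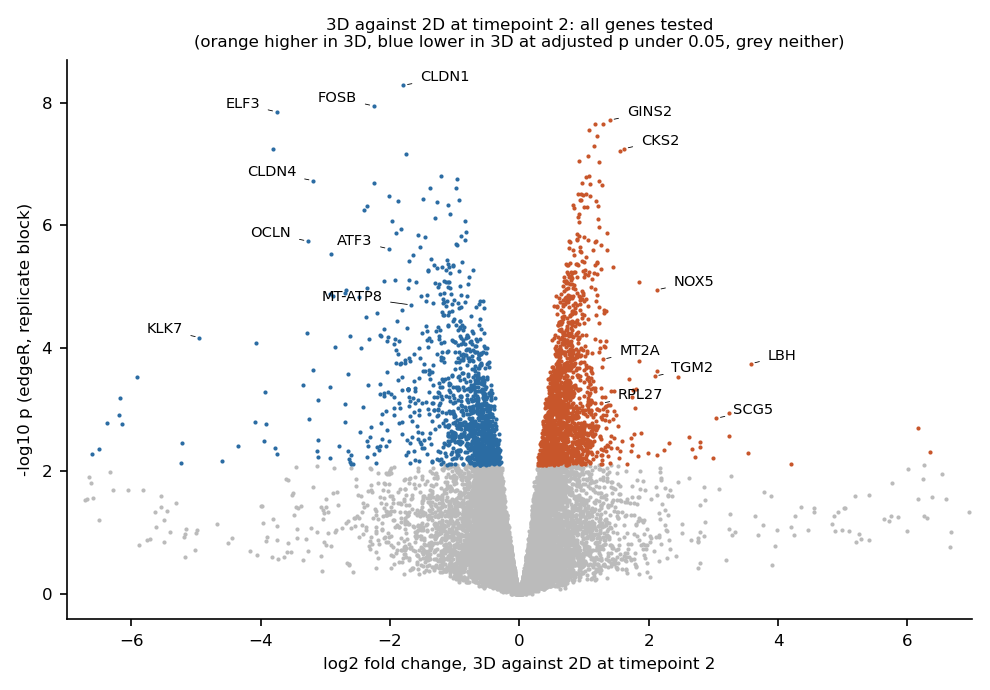
Each point is 1 of the genes tested, with the log2 fold change of 3D against 2D at timepoint 2 on the x axis and the −log10 of edgeR's p with the replicate block on the y axis. Orange points rose and blue points fell at an adjusted p under 0.05, grey points did not pass, and 11 genes with a log2 fold change beyond 7 lie outside the plotted range. Junction and stress genes such as ELF3, CLDN4 and FOSB sit far to the left, and GINS2, CKS2 and MT2A to the right.

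Library totals in the file headers were 12.7 M to 14.5 M in 2D and 10.5 M to 16.9 M in 3D, while the gene counts summed to 4.96 to 5.26 times these totals in 2D and 5.54 to 5.73 times in 3D. The share of counts on mitochondrially encoded genes ran from 0.908% to 1.18% in 2D and from 0.364% to 0.482% in 3D. The 10 most counted genes took 8.41% to 9.76% of a 2D library and 11.1% to 13.1% of a 3D library. The first principal component of the 6 libraries held 35.6% of the variance, with all 2D libraries on one side and all 3D libraries on the other. All 13 basal markers of MCF10A were measured, including KRT14, with a 2D mean of 189.8 ± 60.1 CPM and a 3D mean of 192 ± 41.1 CPM (SD, n = 3), and EGFR, with a 2D mean of 148 ± 36.2 CPM and a 3D mean of 141 ± 72.7 CPM. The leukocyte genes PTPRC, CD3E and MS4A1, the endothelial gene CDH5, the fibroblast gene COL3A1 and the luminal genes PGR, ANKRD30A and TFF3 had 0 counts in all 6 libraries. Of the other markers of these cell types, CD14 fell by 1.12, KDR fell by 1.56 and PECAM1 fell by 0.99, while FAP rose by 0.99 and the growth factor gene AREG rose by 0.64 on the log2 scale (edgeR adjusted p = 0.00141, 0.00766, 0.0255, 0.0249 and 0.034). Without the replicate block, CD14 still passed, whereas KDR (0.0675), PECAM1 (0.1), FAP (0.358) and AREG (0.244) did not. Leaving out 1 library at a time ended the call for PECAM1 (0.0977) without 2D replicates 1, 2 or 3 or 3D replicate 2 and for FAP (0.0948) without each of the 6 libraries. It was also lost for AREG (0.128) without 2D replicates 1, 2 or 3 or 3D replicates 1 or 3. The log2 fold changes of CSF1R (-0.36), CD68 (-0.02), DCN (-0.31), GATA3 (-0.47) and FOXA1 (-0.36) did not pass (edgeR adjusted p = 0.221, 0.948, 0.279, 0.0653 and 0.326). In bulk RNA of this kind, fewer cells of a type and less RNA per cell cannot be told apart.

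Tight junction genes were lower in 3D. Of 16 listed genes 14 were measured, 11 fell and 0 rose, all 14 estimates were below 0, and the median log2 fold change was -0.78. CLDN4 (hg38 chr7:73828174-73832683) encodes a claudin, 1 of the strand proteins that seal the space between cells. It had 2D levels of 5.02, 6.27 and 10.7 CPM and 3D levels of 0.142, 0.878 and 1.83 CPM. All 3D libraries lay below all 2D libraries, and CLDN4 fell by 3.19 ± 0.33 (SE) on the log2 scale, 9.12-fold (edgeR adjusted p = 1.59e-04). OCLN (chr5:69492292-69558104) encodes occludin, a further strand protein, and had 2D values of 1.09, 1.60 and 3.47 CPM and 3D values of 0.0593, 0.176 and 0.411 CPM. These levels were low, the groups did not overlap, and OCLN fell by 3.27 ± 0.42 (edgeR adjusted p = 4.49e-04). CLDN1 (chr3:190305707-190322446) had 2D levels of 2.79, 3.09 and 4.09 CPM and 3D levels of 0.783, 1.03 and 1.06 CPM and fell by 1.79 ± 0.14 (edgeR adjusted p = 6.98e-05), with little spread within each group. CLDN7, an abundant claudin transcript in both cultures, had 2D levels of 116, 127 and 126 CPM and 3D levels of 65.7, 68.6 and 73.0 CPM. Its groups were narrow and apart, and it fell by 0.83 ± 0.10 (edgeR adjusted p = 2.84e-04).

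Scaffold genes of the tight junction followed the same direction. TJP3 (ZO-3, chr19:3708503-3750810) had 2D values of 21.3, 25.5 and 21.6 CPM and 3D values of 2.60, 5.74 and 5.81 CPM and fell by 2.35 ± 0.35 (edgeR adjusted p = 0.00111). CGN, which encodes the scaffold cingulin, had 2D levels of 0.980, 1.28 and 1.73 CPM and 3D levels of 0.190, 0.371 and 0.490 CPM and fell by 1.97 ± 0.23 (edgeR adjusted p = 2.84e-04). The other tight junction genes that fell were CLDN23, MARVELD2, F11R, TJP1 and LSR. In the fit without the block, CLDN4, OCLN, CLDN1, CLDN7, TJP3 and CGN still passed. Over the list 8 genes passed without the block, and between 9 and 11 fell when any 1 library was left out.

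Of 12 genes of the desmosome, which anchors keratin filaments at cell contacts, 9 fell, 0 rose, and the median was -0.65. DSG3, an adhesive desmosomal cadherin, had 2D levels of 25.1, 26.2 and 29.8 CPM and 3D levels of 4.35, 11.8 and 10.3 CPM, and DSC2, its partner in adhesion, had 2D values of 17.4, 14.6 and 21.3 CPM and 3D values of 5.45, 7.14 and 6.46 CPM. In both genes every 3D library was below every 2D library. DSG3 fell by 1.70 ± 0.23 and DSC2 fell by 1.51 ± 0.23 on the log2 scale (edgeR adjusted p = 7.34e-04 and 0.0013). PPL, the cytolinker periplakin, had 2D levels of 97.8, 140.2 and 93.5 CPM and 3D levels of 25.7, 58.8 and 41.7 CPM and fell by 1.46 ± 0.18 (edgeR adjusted p = 4.30e-04). DSP, which links the plaque to keratins, had 2D levels of 277, 399.9 and 421 CPM and 3D levels of 145, 271 and 228 CPM and fell by 0.80 ± 0.12 (edgeR adjusted p = 0.00101). The 3D values of DSP approached the lowest 2D value without crossing it. DSC3, PERP, EVPL, JUP and PKP2 made up the other calls. When the block was dropped, DSG3, DSC2 and PPL still passed, whereas DSP (0.162) did not. Over the list 4 genes passed without the block, and 7 to 9 with 1 library left out. Desmosome genes are long, with a median transcript length of 4558 bases. With an offset for length and GC content their median was -0.49 and 7 fell.

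Of the adherens junction and polarity genes, 6 of 19 fell, 0 rose, and the median was -0.43. CDH1, which encodes E-cadherin (chr16:68737292-68835537), had 2D values of 112, 148 and 146 CPM and 3D values of 28.0, 86.4 and 70.1 CPM. Replicate 1 in 3D was far below the other 3D libraries, the groups did not overlap, and CDH1 fell by 1.23 ± 0.21 (edgeR adjusted p = 0.00274). EPCAM had 2D levels of 26.1, 17.9 and 20.3 CPM and 3D levels of 11.8, 9.41 and 11.7 CPM and fell by 0.96 ± 0.22 (edgeR adjusted p = 0.0121). PATJ and AFDN, a polarity scaffold and afadin, fell by less (-0.53 and -0.43 in log2 fold change, edgeR adjusted p = 0.0227 and 0.0233). Without a term for the replicate number, CDH1 (0.077), EPCAM (0.0603), PATJ (0.139) and AFDN (0.2) did not pass. With single libraries left out, the call was lost for EPCAM (0.0627) without 2D replicate 1 or 3D replicate 1 and for PATJ (0.14) without 2D replicates 1 or 3 or 3D replicates 2 or 3. A left-out library also ended the call for AFDN (0.126) without 2D replicates 1 or 3 or 3D replicates 1 or 2. Without the block 0 genes of this list passed by edgeR and 7 had an unadjusted p under 0.05. With the length and GC offset the median was -0.28 and 8 fell. Left-out libraries lowered the count most for 2D replicate 1 (1 gene), 3D replicate 1 (2 genes), 2D replicate 3 (3 genes) and 3D replicate 2 (3 genes).

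Epithelial transcription factors fell with the junction genes: 10 of 15 measured of 17 listed, 0 higher, with a median of -0.74. ELF3 (chr1:202007945-202016009), an ETS factor of epithelial differentiation, had 2D levels of 17.2, 15.7 and 23.9 CPM and 3D levels of 0.724, 1.64 and 2.10 CPM. The highest 3D library held less than the lowest 2D library by a wide margin, and ELF3 fell by 3.75 ± 0.32, 13.5-fold (edgeR adjusted p = 6.98e-05), the change with the largest size among the factors named here. ELF3 overlaps 2 other annotated genes, an antisense RNA among them, and whether counting used strand is not stated. GRHL3, a grainyhead factor that drives barrier genes, had 2D values of 12.8, 22.3 and 24.2 CPM and 3D values of 2.21, 3.57 and 5.83 CPM, and it fell by 2.41 ± 0.28 (edgeR adjusted p = 2.11e-04). OVOL1, a zinc finger factor that holds epithelial identity, had 2D levels of 0.409, 0.474 and 0.802 CPM and 3D levels of 0.131, 0.176 and 0.190 CPM and fell by 1.74 ± 0.30 (edgeR adjusted p = 0.00259). SOX9, a factor of progenitor cells in many epithelia, had 2D levels of 2.23, 2.21 and 3.03 CPM and 3D levels of 0.973, 1.07 and 1.64 CPM and fell by 1.04 ± 0.16 (edgeR adjusted p = 0.00149). In all of these the groups did not overlap. EHF, KLF4, FOXC1, KLF5 and TFAP2A also fell. TP63, the factor of basal epithelial identity, had 2D values of 32.7, 57.0 and 71.6 CPM and 3D values of 26.1, 52.5 and 47.9 CPM, with overlapping groups, and did not pass (-0.35 ± 0.13, edgeR adjusted p = 0.0845). With the block left out, ELF3, GRHL3 and OVOL1 still passed, whereas SOX9 (0.0726) did not. Without the block 5 factors passed, and without 1 library 6 to 9, the fewest without 3D replicate 1.

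**Figure D2:**
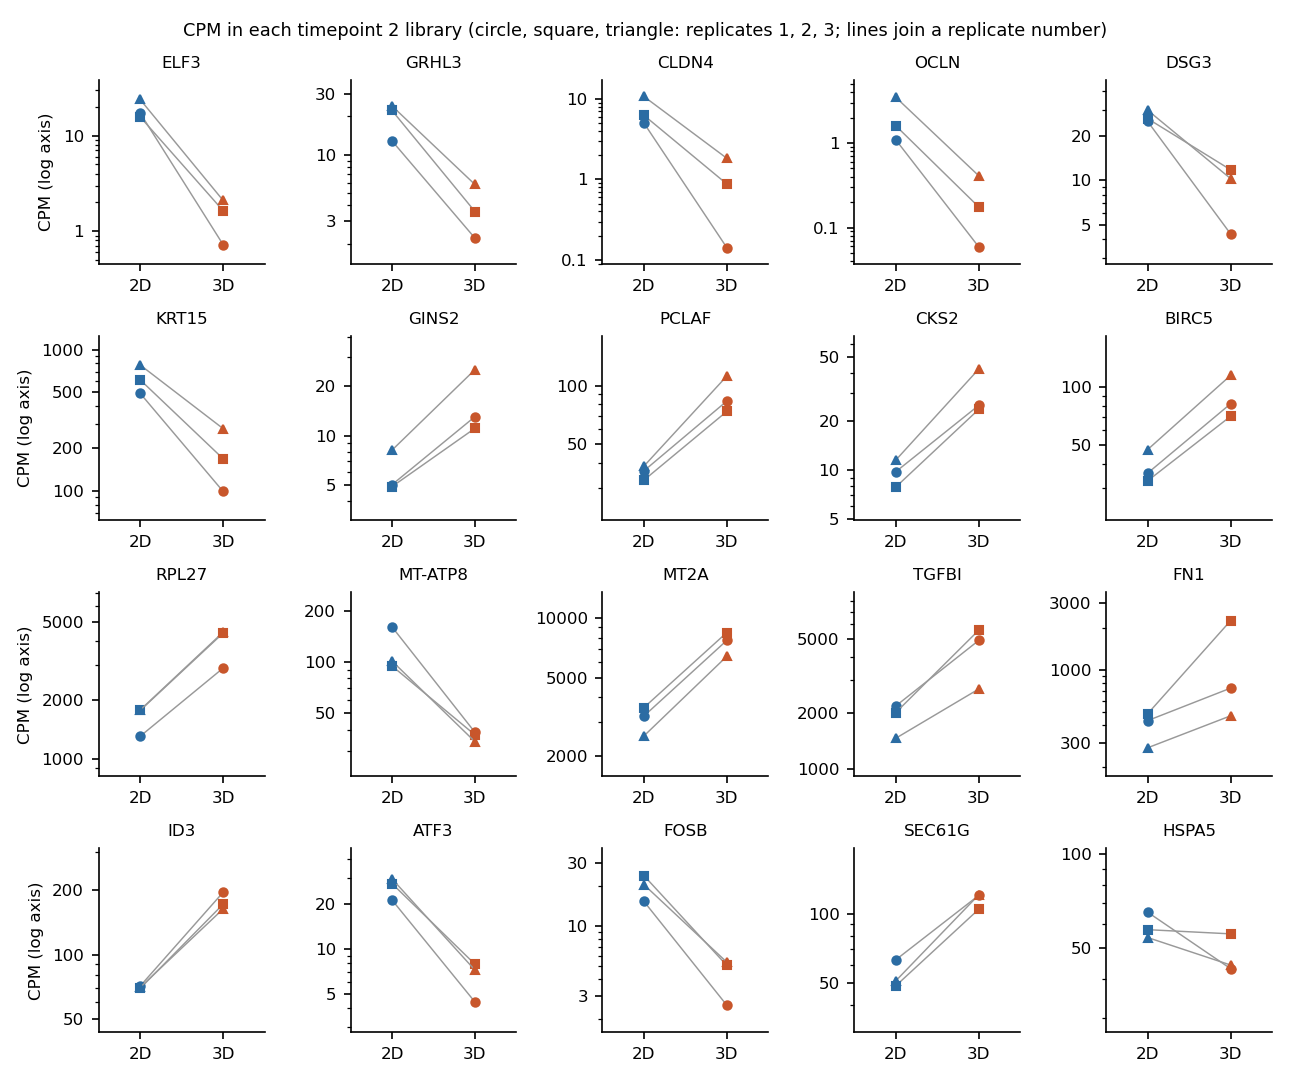
CPM on log axes for 20 genes in the 6 libraries of timepoint 2, with circles, squares and triangles for replicates 1, 2 and 3 and a line joining the 2D and 3D library of each number. ELF3, GRHL3, CLDN4, OCLN, DSG3 and KRT15 fell along every line, GINS2, PCLAF, CKS2 and BIRC5 rose along every line, and HSPA5 ran from 65.3 to 43.1 CPM in replicate 1 and from 57.4 to 55.7 CPM in replicate 2.

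Genes of squamous differentiation, the stratified epithelial programme that MCF10A cells can switch on, fell as well: 11 of 23 measured, 0 rose, and the median was -0.95. SPRR1B, a cornified envelope precursor, had 2D levels of 4.53, 6.21 and 12.7 CPM and 3D levels of 0.925, 1.25 and 4.61 CPM. Replicate 3 was the highest library in both cultures and the groups touched there, yet each 3D library was below its 2D partner and the change was -2.01 ± 0.22 (edgeR adjusted p = 1.81e-04). SPRR1A had 2D levels of 0.993, 1.17 and 2.42 CPM and 3D levels of 0.166, 0.254 and 0.679 CPM and fell by 2.19 ± 0.36 (edgeR adjusted p = 0.00182). SPRR2D had 2D values of 3.90, 3.54 and 8.98 CPM and 3D values of 0.427, 0.859 and 4.53 CPM and fell by 1.95 ± 0.36 (edgeR adjusted p = 0.00366). Again replicate 3 in 3D reached the 2D range. KLK7, a protease of the cornified layer, had 2D levels of 1.17, 1.32 and 3.35 CPM and 3D levels of 0, 0 and 0.205 CPM, and no fold is given for it because its 3D values are at or near 0 (edgeR adjusted p = 0.00323). Unblocked, KLK7 still passed, whereas SPRR1B (0.208), SPRR1A (0.123) and SPRR2D (0.335) did not. The median was -0.43 with the 6 libraries alone and the block, -0.33 with these and no block, and -0.57 with counts divided by transcripts. Without the block 1 gene of the list passed. Without 2D replicate 1, 2D replicate 3, 3D replicate 1 or 3D replicate 2 the count was 7, 6, 7 and 7.

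Keratins did not move as 1 group, with 3 of 14 lower and 1 higher. KRT15, a keratin of basal layers, had 2D levels of 492, 613 and 780.4 CPM and 3D levels of 99.3, 169 and 276 CPM and fell by 1.91 ± 0.28 (edgeR adjusted p = 9.71e-04). KRT16, a keratin of stressed epidermis, had 2D values of 87.9, 146 and 139 CPM and 3D values of 31.4, 54.6 and 51.2 CPM and fell by 1.45 ± 0.25 (edgeR adjusted p = 0.00249). Neither gene's groups overlapped. KRT80 fell by 1.03 and KRT81 rose by 0.53 (edgeR adjusted p = 0.0251 and 0.0424), and KRT13, which stood outside that list, fell by 2.30 (edgeR adjusted p = 0.0272). KRT14 had a log2 fold change of 0.06 ± 0.24 (edgeR adjusted p = 0.897). Fitted without the pairing, KRT15 (0.101), KRT16 (0.0655), KRT80 (0.0664), KRT81 (0.127) and KRT13 (0.123) did not pass. Single libraries decided the call for KRT80 (0.134) without 2D replicates 1 or 3 or 3D replicates 1 or 2 and for KRT81 (0.192) without 2D replicates 1, 2 or 3 or 3D replicates 1 or 2. The call also ended for KRT13 (0.131) without 2D replicates 1, 2 or 3 or 3D replicates 1 or 3. With 3D replicate 3 left out 2 keratins rose and 3 fell, and with 2D replicate 1 left out 0 rose and 2 fell. Calls without the block, higher and lower, numbered 0 and 0 by edgeR (6 at an unadjusted p under 0.05) for the keratins.

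**Figure D3:**
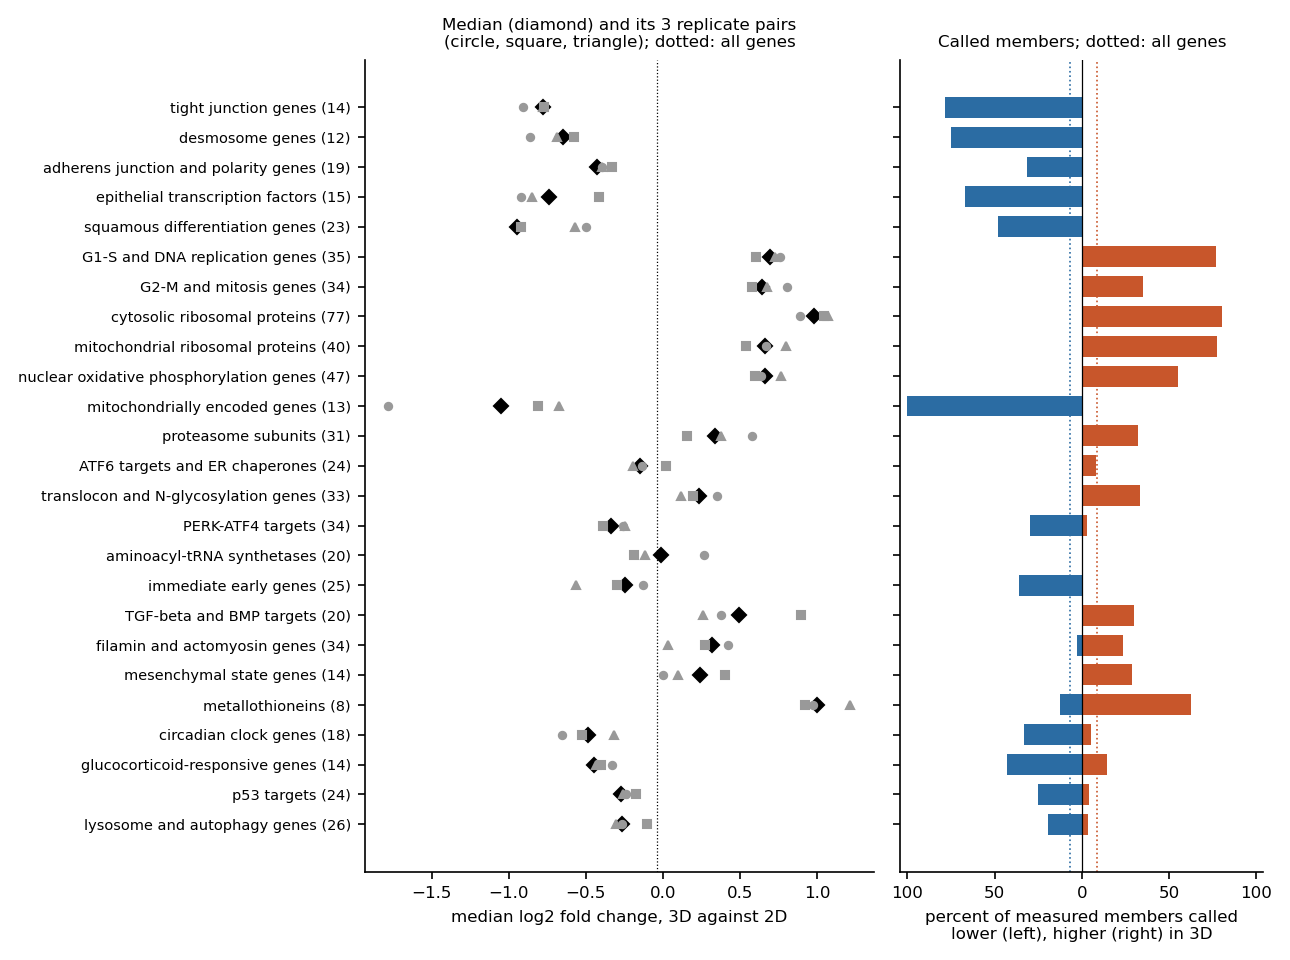
The left panel gives the median log2 fold change of each gene list (diamonds), the medians of the 3 replicate pairs (grey symbols) and the median of all genes tested (dotted line), with the number of measured members in parentheses. The right panel gives the percent of each list's measured members that rose (orange) or fell (blue), with the shares of all genes tested as dotted lines. Tight junction, desmosome and epithelial transcription factor genes lie left of the dotted line and cell cycle, ribosomal protein and nuclear oxidative phosphorylation genes to its right.

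Genes of the G1-S transition and DNA replication were higher in 3D. Of 35 measured, 27 rose and 0 fell, and the median was 0.69. GINS2 (chr16:85676198-85688954), a subunit of the GINS complex of the replicative helicase, had 2D levels of 5.04, 4.90 and 8.18 CPM and 3D levels of 13.1, 11.1 and 25.3 CPM. All 3D libraries exceeded all 2D libraries, replicate 3 was the highest in each culture, and GINS2 rose by 1.40 ± 0.12 (edgeR adjusted p = 6.98e-05). TK1, the thymidine kinase of S phase, had 2D levels of 28.1, 27.5 and 33.5 CPM and 3D levels of 57.6, 49.8 and 70.3 CPM and rose by 0.98 ± 0.11 (edgeR adjusted p = 1.81e-04). PCNA, the sliding clamp of DNA polymerases, had 2D values of 45.5, 33.1 and 55.5 CPM and 3D values of 93.0, 51.4 and 128 CPM. Its 3D replicate 2 lay below 2D replicate 3, each 3D library was above its 2D partner, and the change was 0.97 ± 0.13 (edgeR adjusted p = 7.35e-04). FEN1, the flap endonuclease of Okazaki fragments, had 2D levels of 14.3, 13.4 and 18.7 CPM and 3D levels of 24.5, 21.8 and 32.7 CPM and rose by 0.76 ± 0.10 (edgeR adjusted p = 4.48e-04). The licensing factor gene CDT1 and the S phase activator gene E2F1 also rose, by 0.86 ± 0.14 and 0.89 ± 0.16 (edgeR adjusted p = 0.00182 and 0.00294). PCLAF, which encodes a PCNA-binding factor, had 2D levels of 36.6, 32.8 and 38.7 CPM and 3D levels of 83.3, 73.7 and 112 CPM and rose by 1.29 ± 0.11 (edgeR adjusted p = 6.98e-05), and the overlapping gene AC087632.1 rose by 1.06 (edgeR adjusted p = 9.82e-05). Under the fit that ignores pairs, GINS2, TK1, CDT1, E2F1, PCLAF and AC087632.1 still passed, whereas PCNA (0.104) and FEN1 (0.0694) did not. Over the list 4 genes passed without the block. The count of 27 went to 16 without 2D replicate 1, to 17 without 3D replicate 1 and to 17 without 3D replicate 3.

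Of 34 mitosis genes measured, 12 rose, 0 fell, and the median was 0.65. CKS2 (chr9:89311195-89316703), a small subunit of cyclin-dependent kinases, had 2D values of 9.76, 7.86 and 11.5 CPM and 3D values of 25.1, 23.7 and 42.0 CPM. The lowest 3D library was far above the highest 2D library, and CKS2 rose by 1.62 ± 0.15 (edgeR adjusted p = 9.58e-05). CKS1B, its paralog, had 2D levels of 7.94, 6.90 and 9.34 CPM and 3D levels of 16.9, 11.2 and 20.4 CPM and rose by 0.98 ± 0.14 (edgeR adjusted p = 8.24e-04). BIRC5 (survivin), of the chromosomal passenger complex, had 2D levels of 35.8, 32.7 and 47.5 CPM and 3D levels of 82.0, 70.7 and 115 CPM and rose by 1.20 ± 0.11 (edgeR adjusted p = 8.05e-05). UBE2C, the ubiquitin-conjugating enzyme of the anaphase-promoting complex, had 2D values of 49.2, 39.7 and 61.0 CPM and 3D values of 102, 80.6 and 169 CPM. It rose by 1.19 ± 0.15 (edgeR adjusted p = 4.48e-04), without overlap of the groups. MKI67, the gene of the proliferation antigen Ki-67, had 2D levels of 44.8, 42.3 and 71.9 CPM and 3D levels of 39.7, 64.8 and 94.7 CPM. The cultures overlapped, replicate 1 was lower and replicates 2 and 3 were higher in 3D, and the change did not pass (0.28 ± 0.38, edgeR adjusted p = 0.661). TUBA1B, an alpha-tubulin gene with an overlapping antisense gene, had 2D levels of 244, 266 and 342 CPM and 3D levels of 527, 556 and 826 CPM and rose by 1.15 ± 0.11 (edgeR adjusted p = 9.58e-05), and TUBA1B-AS1 rose by 1.07 (edgeR adjusted p = 7.29e-05). Without the replicate block, CKS2, BIRC5, UBE2C, TUBA1B and TUBA1B-AS1 still passed, whereas CKS1B (0.0675) did not. Over the list 4 passed without the block, and the 12 became 7 without 2D replicate 1, 6 without 2D replicate 3, 8 without 3D replicate 1 and 7 without 3D replicate 3. Replication-dependent histone genes, whose messages mostly lack poly-A tails, showed 1 lower of 14, H2BC21 (-1.21 ± 0.23, edgeR adjusted p = 0.00469).

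The promoters of these genes were read for 2 motifs of cell cycle control in the 200 bases before the start, on both strands, in RefSeq GRCh38.p14. An E2F motif, TTTCCCGC or TTTGGCGC, was in 10 of the 30 G1-S promoters found in the table (33.33%) and in 1.634% of all 27303 promoters. The CHR motif TTTGAA, a site type of mitotic promoters, was in 17 of 28 mitosis promoters (60.71%) and in 10.48% of all. A match describes letters only and is no evidence of binding. GINS2 (chr16:85688955-85689154, reverse strand) and PCNA (chr20:5126623-5126822, reverse strand) are shown for the E2F motif. CKS2 (chr9:89310995-89311194, forward strand) and CKS1B (chr1:154974481-154974680, forward strand) are shown for the CHR motif. These 4 were picked among the genes described above whose promoter held a match. TK1 and FEN1 for E2F, and BIRC5 and UBE2C for CHR, gave no match, or their promoters were not among those found. Sequences run 5′ to 3′ on the gene's strand, with the motif or its reverse complement in capitals.
GINS2: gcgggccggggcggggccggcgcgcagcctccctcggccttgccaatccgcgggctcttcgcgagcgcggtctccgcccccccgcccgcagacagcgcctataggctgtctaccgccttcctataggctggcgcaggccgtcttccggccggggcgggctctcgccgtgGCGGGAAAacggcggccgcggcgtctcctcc
PCNA: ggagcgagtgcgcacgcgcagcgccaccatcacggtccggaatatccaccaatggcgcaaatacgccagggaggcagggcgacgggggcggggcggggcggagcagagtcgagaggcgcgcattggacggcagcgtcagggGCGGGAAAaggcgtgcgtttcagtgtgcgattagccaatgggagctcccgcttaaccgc
CKS2: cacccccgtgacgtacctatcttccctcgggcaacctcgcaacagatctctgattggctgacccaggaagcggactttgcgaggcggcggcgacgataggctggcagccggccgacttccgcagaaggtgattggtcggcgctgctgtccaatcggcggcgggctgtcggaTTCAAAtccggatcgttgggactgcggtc
CKS1B: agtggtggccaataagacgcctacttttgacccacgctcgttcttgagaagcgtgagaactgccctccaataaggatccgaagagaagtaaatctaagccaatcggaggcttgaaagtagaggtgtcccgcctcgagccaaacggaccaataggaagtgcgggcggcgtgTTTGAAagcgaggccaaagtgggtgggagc

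Genes of cytosolic ribosomal proteins were higher in 3D almost throughout: 62 of 77 measured rose, 0 fell, and the median was 0.98. RPL27 had 2D values of 1299, 1761 and 1769 CPM and 3D values of 2895, 4372 and 4418 CPM. The 3D range began above the 2D range, and RPL27 rose by 1.27 ± 0.30 (edgeR adjusted p = 0.0131). RPS6, a substrate of growth signalling, had 2D levels of 1422, 1575 and 1879 CPM and 3D levels of 2867, 3295 and 4100.2 CPM and rose by 1.07 ± 0.25 (edgeR adjusted p = 0.0124). RPL6, RPL24 and RPL5 rose by 0.90, 1.05 and 0.85 (edgeR adjusted p = 0.0073, 0.0104 and 0.0105). RPS3, RPLP0 and RACK1 were among the called genes with the highest counts and rose by 1.21, 0.87 and 0.79 (edgeR adjusted p = 0.0216, 0.0363 and 0.044). SNHG29, a host of small nucleolar RNAs, rose by 0.94 (edgeR adjusted p = 0.0303). Many ribosomal protein genes have near-identical processed pseudogenes, so their counts are uncertain to that degree. In the fit without the block, RPL27 (0.0787), RPS6 (0.118), RPL6 (0.107), RPL24 (0.114), RPL5 (0.133), RPS3 (0.104), RPLP0 (0.169), RACK1 (0.171) and SNHG29 (0.109) did not pass. Dropping 1 library took away the call for RPL27 (0.0734), RPS6 (0.0726) and RPL24 (0.0622) without 2D replicates 1 or 3 or 3D replicate 2 and for RPL5 (0.0625) without 2D replicates 1 or 3. It ended as well for RPS3 (0.106) and SNHG29 (0.138) without 2D replicates 1 or 3 or 3D replicates 1 or 2 and for RPLP0 (0.163) and RACK1 (0.19) without 2D replicates 1 or 3 or 3D replicates 1, 2 or 3. Without the block 0 ribosomal protein genes of the list passed by edgeR and 72 had an unadjusted p under 0.05, whereas 64 passed in an unblocked fit of the 6 libraries alone. The count was 1 without 2D replicate 1, 1 without 2D replicate 3, 13 without 3D replicate 1 and 2 without 3D replicate 2, against 53 without 2D replicate 2 or 3D replicate 3. In these 6 runs the list's median ran from 0.80 to 1.16.

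Translation factors whose messages carry the same 5′ terminal oligopyrimidine tract moved in that direction too, with 7 of 14 higher and a median of 0.56. TPT1 had 2D levels of 5513, 5403 and 6871 CPM and 3D levels of 10976, 12377 and 14938 CPM and rose by 1.11 ± 0.23 (edgeR adjusted p = 0.00664). EEF1A1, the main elongation factor, NACA and EIF3E rose by 0.63, 0.82 and 0.58 (edgeR adjusted p = 0.0205, 0.0114 and 0.00904). By contrast, genes that build ribosomes in the nucleolus showed 2 higher and 1 lower of 27, against 9.0% and 6.86% of all genes. NOP56 had 2D values of 393, 379.6 and 479 CPM and 3D values of 558, 537 and 847 CPM and rose by 0.60 ± 0.11 (edgeR adjusted p = 0.00319). NOP16 rose by 0.59, and POLR1A, the large subunit of RNA polymerase I, fell with a log2 fold change of -0.32 (edgeR adjusted p = 0.0227 and 0.0483). When the block was dropped, TPT1 (0.0844), EEF1A1 (0.192), NACA (0.0955), EIF3E (0.294), NOP56 (0.2), NOP16 (0.185) and POLR1A (0.453) did not pass. A single left-out library ended the call for EEF1A1 (0.109) and NOP16 (0.124) without 2D replicates 1 or 3 or 3D replicates 1 or 2 and for NACA (0.0722) without 2D replicate 3. Lost too were the calls for POLR1A (0.219) without 2D replicates 1 or 3 or 3D replicates 1, 2 or 3. The count of 7 translation factors was 3, 2, 3 and 4 without 2D replicate 1, 2D replicate 3, 3D replicate 1 and 3D replicate 2. The numbers higher and lower without the block were 0 and 0 by edgeR (6 at an unadjusted p under 0.05) for the translation factors and 0 and 0 (2) for ribosome biogenesis.

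Mitochondrial genes split by genome. Of 40 genes of the mitochondrial ribosome, which the nucleus encodes, 31 rose, 0 fell, and the median was 0.66. MRPL17 had 2D levels of 41.3, 35.0 and 42.0 CPM and 3D levels of 75.9, 60.1 and 94.0 CPM and rose by 0.93 ± 0.12 (edgeR adjusted p = 5.16e-04). MRPL33, MRPL18 and MRPL34 rose by 0.96, 0.77 and 0.81 (edgeR adjusted p = 5.64e-04, 5.21e-04 and 9.19e-04). Of 47 nuclear genes of oxidative phosphorylation 26 rose, 0 fell, and the median was 0.66. ATP5F1E, a small subunit of ATP synthase, had 2D levels of 77.3, 82.4 and 94.5 CPM and 3D levels of 157, 207 and 206 CPM and rose by 1.17 ± 0.26 (edgeR adjusted p = 0.0095). NDUFB3 of complex I, UQCRB of complex III and ATP5PF of the synthase stalk rose by 0.73, 0.70 and 0.71 (edgeR adjusted p = 0.00805, 0.00947 and 0.0108). The catalytic subunits SDHA and ATP5F1B did not pass: SDHA was at -0.21 ± 0.12 and ATP5F1B at -0.08 ± 0.15 in log2 fold change (edgeR adjusted p = 0.266 and 0.735).

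Messages of the mitochondrial genome went the other way, with 13 of 13 lower and a median of -1.05. MT-ATP8 (chrM, 8366 to 8572), which overlaps MT-ATP6, had 2D values of 161, 94.9 and 101 CPM and 3D values of 38.5, 37.2 and 33.9 CPM. The highest 3D library was below the lowest 2D library, and MT-ATP8 fell by 1.67 ± 0.26 (edgeR adjusted p = 0.00151). MT-ND4L had 2D levels of 144, 107 and 98.1 CPM and 3D levels of 31.4, 54.4 and 41.9 CPM and fell by 1.42 ± 0.26 (edgeR adjusted p = 0.00395). MT-ND4, MT-ND1, MT-CO1 and MT-ND3 changed by -1.13, -0.99, -0.93 and -0.65 (edgeR adjusted p = 0.0161, 0.0126, 0.0224 and 0.00775), and the ribosomal RNA MT-RNR2 fell by 0.62 (edgeR adjusted p = 0.00497). Without a term for the replicate number, MT-ATP8 and MT-ND4L still passed, whereas MRPL17 (0.0541), MRPL33 (0.085), MRPL18 (0.0724), MRPL34 (0.0505), ATP5F1E (0.0603), NDUFB3 (0.101), UQCRB (0.111), ATP5PF (0.12), MT-ND4 (0.0615), MT-ND1 (0.0555), MT-CO1 (0.0803), MT-ND3 (0.145) and MT-RNR2 (0.0666) did not. Leaving out 1 library at a time ended the call for ATP5F1E (0.0538), NDUFB3 (0.0536), UQCRB (0.0559), ATP5PF (0.0687) and MT-ND1 (0.0542) without 2D replicate 3 and for MT-ND4 (0.0719) and MT-CO1 (0.0775) without 2D replicates 1 or 3. Without the block 1 mitochondrial ribosomal, 0 oxidative phosphorylation (35 at an unadjusted p under 0.05) and 2 mitochondrially encoded genes passed by edgeR, and with the 6 libraries alone and no block 17, 28 and 7. Without 2D replicate 3 these counts were 13, 0 and 3, without 2D replicate 1 they were 15, 5 and 4, without 3D replicate 1 they were 17, 11 and 8, and without 3D replicate 2 they were 18, 4 and 8.

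Transcript length moved with the culture as well. In 5 equal groups of protein-coding genes by length, the median log2 fold change was -0.01, 0.06, 0.06, -0.05 and -0.26 from the shortest to the longest, the last holding transcripts of 2530 bases or more. The share of genes that rose was 14.85%, 15.37%, 13.43%, 6.157% and 2.688%, and the share that fell 7.709%, 6.453%, 5.849%, 8.139% and 12.73%. With an offset for length and GC content fitted per library, 66 ribosomal protein genes still rose with a median of 0.90, 28 oxidative phosphorylation genes rose, and all 13 mitochondrially encoded genes fell. The shares of mitochondrial and of the most counted genes per library, given above, moved with the culture at timepoint 2 too. At timepoint 1 they moved with the replicate. There the 10 most counted genes took 11.7% of 2D replicate 3 and 11.6% of 3D replicate 3. In the other libraries of timepoint 1 they took 7.47% to 8.99%. The mitochondrial share was 0.658% and 0.541% in these replicates 3 and 0.976% to 1.25% in the others. The part of these shares in the results was not tested.

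**Figure D4:**
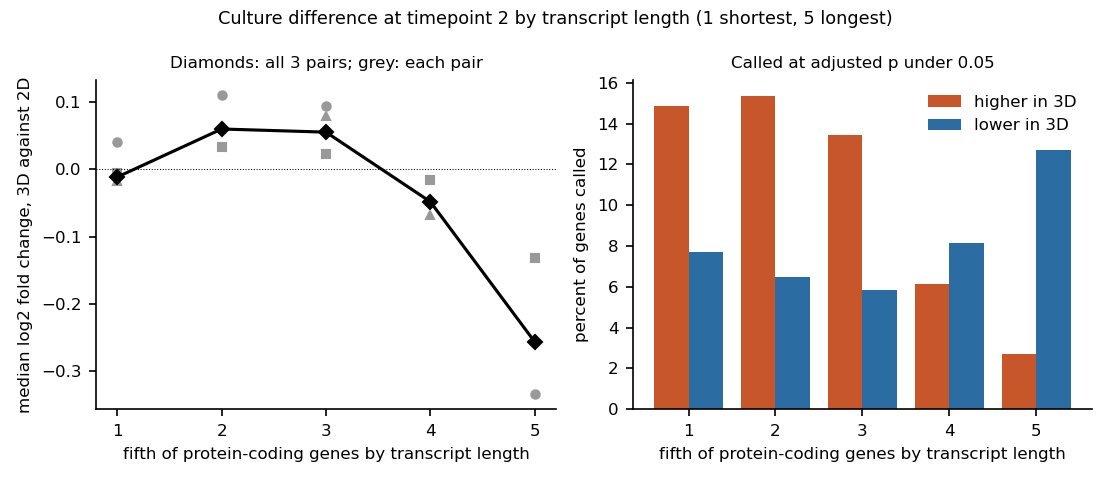
Protein-coding genes in 5 groups by transcript length, from the shortest to the longest, with the median log2 fold change in the left panel (diamonds for the fit, grey symbols for the 3 replicate pairs) and the percent of genes that rose (orange) or fell (blue) in the right panel. The median of the longest group was -0.26, and 12.73% of its genes fell against 2.688% that rose.

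Genes of the endoplasmic reticulum did not move as 1 group. Genes of the translocon and of N-glycosylation, which bring new secretory proteins into the organelle and add sugars to them, showed 11 higher of 33, 0 lower and a median of 0.23. SEC61G and SEC61B encode the small subunits of the translocation channel. SEC61G had 2D levels of 63.0, 48.4 and 50.9 CPM and 3D levels of 121, 105 and 121 CPM and rose by 1.10 ± 0.16 (edgeR adjusted p = 0.00109). SEC61B had 2D values of 43.8, 47.1 and 43.4 CPM and 3D values of 84.5, 90.5 and 88.6 CPM, with the 2D libraries within a few CPM of each other, and rose by 0.97 ± 0.17 (edgeR adjusted p = 0.00306). OSTC, an oligosaccharyltransferase subunit, had 2D levels of 31.2, 28.4 and 27.4 CPM and 3D levels of 64.4, 55.8 and 52.0 CPM and rose by 0.98 ± 0.15 (edgeR adjusted p = 0.00128). SERP1, a small membrane protein at the translocon, rose by 0.62 ± 0.10 (edgeR adjusted p = 0.00233). STT3A, the catalytic subunit of the same transferase, did not pass (-0.42 ± 0.17, edgeR adjusted p = 0.115). With the block left out, SEC61G, SEC61B, OSTC and SERP1 still passed. Over the list 4 passed without the block, and 7 without 2D replicate 1 or 2D replicate 3.

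Chaperones of the ATF6 arm of the unfolded protein response showed 2 higher and 0 lower of 24, against 9.0% and 6.86% of all genes. HSPA5 (BiP), the central chaperone of the organelle, had 2D levels of 65.3, 57.4 and 54.2 CPM and 3D levels of 43.1, 55.7 and 44.3 CPM. The groups overlapped, and HSPA5 did not pass (-0.31 ± 0.19, edgeR adjusted p = 0.3). XBP1 had 2D values of 84.8, 65.7 and 83.4 CPM and 3D values of 102, 65.0 and 70.5 CPM, and its change of 0.01 ± 0.11 did not pass (edgeR adjusted p = 0.956), although gene counts do not show its splicing. SDF2L1 and MANF, cofactors of BiP, rose by 0.78 ± 0.12 and 0.61 ± 0.13 (edgeR adjusted p = 0.0013 and 0.00797). CANX, a lectin chaperone, had 2D levels of 756, 780.1 and 730.4 CPM and 3D levels of 422, 616 and 522 CPM and did not pass (-0.55 ± 0.18, edgeR adjusted p = 0.0524). In vesicle coats 1 gene of 23 changed, KDELR3 (0.70, edgeR adjusted p = 0.00993). Unblocked, SDF2L1 still passed, whereas MANF (0.132) and KDELR3 (0.177) did not. With single libraries left out, the call was lost for KDELR3 (0.0684) without 2D replicate 1. Higher and lower genes without the block numbered 1 and 0 for the chaperones and 0 and 0 by edgeR (2 at an unadjusted p under 0.05) for vesicle coats.

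Targets of the PERK and ATF4 arm were lower where they moved: 10 of 34 fell, 1 rose, and the median was -0.34. ATF3 (chr1:212613436-212620777), a stress-induced factor, had 2D levels of 21.3, 27.4 and 29.5 CPM and 3D levels of 4.41, 7.90 and 7.22 CPM. All 3D libraries were below all 2D libraries, and ATF3 fell by 2.02 ± 0.26 (edgeR adjusted p = 5.35e-04). DDIT3 (CHOP) had 2D values of 16.9, 17.2 and 16.2 CPM and 3D values of 9.51, 9.92 and 12.4 CPM, narrow in 2D, and fell by 0.66 ± 0.16 (edgeR adjusted p = 0.0136). STC2, a secreted stanniocalcin, had 2D levels of 23.9, 25.3 and 23.1 CPM and 3D levels of 7.45, 11.6 and 10.0 CPM and fell by 1.33 ± 0.18 (edgeR adjusted p = 7.43e-04). The glycine transporter gene SLC6A9 fell by 1.16 (edgeR adjusted p = 0.00125). EIF4EBP1, a repressor of cap-dependent translation, was the list's member that rose, by 1.00 ± 0.14 (edgeR adjusted p = 9.13e-04). ATF4 itself, which is controlled largely in translation, had 2D levels of 164, 176 and 178 CPM and 3D levels of 208, 226 and 234 CPM without a call (0.36 ± 0.19, edgeR adjusted p = 0.21). The 20 aminoacyl-tRNA synthetase genes, part of which ATF4 also drives, held 0 calls by edgeR, DESeq2 or limma-voom, 1 unadjusted p under 0.05, and 4 calls with the length and GC offset. LARS1 and AARS1 had the smallest p among those named, with log2 fold changes of -0.31 and -0.23 (edgeR adjusted p = 0.156 and 0.164). Fitted without the pairing, ATF3, STC2 and SLC6A9 still passed, whereas DDIT3 (0.0669) and EIF4EBP1 (0.0632) did not. Single libraries decided the call for DDIT3 (0.0737) without 3D replicate 1. Over the list 4 passed without the block, and 6 without 2D replicate 1 or without 3D replicate 1.

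Immediate early genes, which growth factors and stress switch on within minutes, showed 9 lower of 25, 0 higher and a median of -0.25. FOSB (chr19:45467996-45475179) had 2D values of 15.4, 24.0 and 20.5 CPM and 3D values of 2.55, 5.07 and 5.37 CPM. The 3D libraries reached no more than a few CPM, none overlapped 2D, and FOSB fell by 2.25 ± 0.19 (edgeR adjusted p = 6.98e-05). NR4A2, an orphan nuclear receptor gene, had 2D levels of 4.57, 5.96 and 4.18 CPM and 3D levels of 1.73, 2.95 and 1.50 CPM and fell by 1.27 ± 0.24 (edgeR adjusted p = 0.00447). FOSL2, BTG2 and FOS fell too, with log2 fold changes of -1.01, -0.91 and -0.51 (edgeR adjusted p = 0.00212, 0.00129 and 0.0131), and KLF4, JUND and KLF6 were the other calls besides ATF3. JUN and EGR1 were not called: EGR1 had 2D levels of 16.0, 16.4 and 14.6 CPM and 3D levels of 16.0, 18.2 and 11.8 CPM (-0.05 ± 0.19, edgeR adjusted p = 0.892) and JUN had 2D values of 11.9, 12.9 and 10.3 CPM and 3D values of 11.8, 13.3 and 6.95 CPM (-0.17 ± 0.33, edgeR adjusted p = 0.765). Under the fit that ignores pairs, FOSB, NR4A2 and BTG2 still passed, whereas FOSL2 (0.19) and FOS (0.221) did not. Dropping 1 library took away the call for FOS (0.0692) without 2D replicate 1. Over the list 5 passed without the block, and 6 without 2D replicate 1. The median was -0.51 without 3D replicate 1.

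EGF family ligands and receptors held 5 lower and 1 higher of 15. NRG2, a neuregulin, had 2D levels of 2.07, 2.55 and 1.63 CPM and 3D levels of 0.403, 0.644 and 0.711 CPM and fell by 1.83 ± 0.22 (edgeR adjusted p = 3.67e-04), at low levels. ERBB3, a neuregulin receptor, had 2D levels of 12.2, 20.2 and 16.3 CPM and 3D levels of 3.43, 11.0 and 7.50 CPM and fell by 1.23 ± 0.19 (edgeR adjusted p = 0.00128). The ligand gene HBEGF and the feedback inhibitor genes LRIG3 and ERRFI1 fell at log2 fold changes of -0.70, -0.73 and -0.53 (edgeR adjusted p = 0.0357, 0.0295 and 0.00399). EGFR, the receptor for the EGF in the medium, had 2D values of 107, 165 and 173 CPM and 3D values of 59.0, 198 and 166 CPM, with replicate 1 in 3D far below the others and no call (-0.19 ± 0.20, edgeR adjusted p = 0.555). Feedback genes of MAP kinase showed 3 lower and 1 higher of 18. DUSP8, DUSP10 and SPRY2 fell (-2.09, -0.78 and -0.58, edgeR adjusted p = 0.00272, 0.0433 and 0.0479), and the phosphatase gene DUSP2 rose by 1.05 (edgeR adjusted p = 0.0256). Without the replicate block, NRG2 still passed, whereas ERBB3 (0.0866), HBEGF (0.157), LRIG3 (0.0882), ERRFI1 (0.179), DUSP8 (0.0813), DUSP10 (0.0991), SPRY2 (0.233) and DUSP2 (0.0902) did not. A single left-out library ended the call for HBEGF (0.176) without 2D replicates 1 or 3 or 3D replicates 1 or 3 and for LRIG3 (0.185) and DUSP2 (0.13) without 2D replicate 3 or 3D replicates 1 or 2. It was also lost for DUSP10 (0.131) without each of the 6 libraries and for SPRY2 (0.219) without 2D replicates 1, 2 or 3 or 3D replicates 1 or 2. With 2D replicate 3 or 3D replicate 1 left out 3 EGF family genes fell, and in the feedback list 1 fell when 2D replicate 1, 2, 3 or 3D replicate 1 or 2 was left out. Numbers higher and lower with no block were 0 and 1 for the EGF family and 0 and 0 by edgeR (5 at an unadjusted p under 0.05) for the feedback list.

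Matrix and transforming growth factor beta target genes showed 6 higher of 20, 0 lower and a median of 0.49. TGFBI (chr5:136028988-136063818), a secreted adhesion protein, had 2D levels of 2184, 2013 and 1465 CPM and 3D levels of 4912, 5574 and 2693 CPM. The groups were apart and TGFBI rose by 1.18 ± 0.15 (edgeR adjusted p = 4.50e-04). ID3 and ID1, inhibitors of helix-loop-helix factors and direct targets of BMP signals, each had groups that did not overlap. ID3 had 2D levels of 71.4, 69.7 and 70.4 CPM and 3D levels of 194, 171 and 163 CPM and rose by 1.32 ± 0.21 (edgeR adjusted p = 0.00183). ID1 had 2D values of 173, 154 and 121 CPM and 3D values of 327, 286 and 237 CPM and rose by 0.92 ± 0.14 (edgeR adjusted p = 0.0013). FN1, fibronectin, had 2D levels of 431, 482 and 275 CPM and 3D levels of 736, 2238 and 466 CPM, with 3D replicate 2 far above the rest and overlapping groups, and rose by 1.29 ± 0.32 (edgeR adjusted p = 0.0168). TAGLN was called too. In the fit without the block, ID3 and ID1 still passed, whereas TGFBI (0.0666) and FN1 (0.185) did not. Leaving out 1 library at a time ended the call for FN1 (0.0841) without 2D replicates 1 or 2 or 3D replicate 2. Over the list 2 passed without the block, and the 6 became 3 without 2D replicate 1, 4 without 2D replicate 2, 4 without 2D replicate 3 and 3 without 3D replicate 2. The median was 0.30 without 3D replicate 2.

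Genes of the mesenchymal state held 4 higher and 0 lower of 14. VIM, vimentin, had 2D levels of 1163, 1188 and 912 CPM and 3D levels of 2117, 1862 and 1413 CPM and rose by 0.72 ± 0.14 (edgeR adjusted p = 0.00601). SNAI2 (Slug), a repressor of E-cadherin, had 2D values of 27.1, 22.3 and 26.5 CPM and 3D values of 66.9, 46.1 and 44.9 CPM and rose by 1.04 ± 0.27 (edgeR adjusted p = 0.0212). Both had groups that did not overlap. TWIST2 rose by 0.46 (edgeR adjusted p = 0.0391). Matrix proteases and crosslinkers showed 4 higher and 3 lower of 29, against 9.0% and 6.86% of all genes tested. TIMP1, a protease inhibitor, had 2D levels of 553, 479 and 399 CPM and 3D levels of 1314, 953 and 587 CPM and rose by 0.95 ± 0.19 (edgeR adjusted p = 0.00544). TGM2, tissue transglutaminase, had 2D levels of 14.3, 11.8 and 8.94 CPM and 3D levels of 101, 64.2 and 13.9 CPM. In 3D its replicate 3 lay within the 2D range and replicate 1 was several-fold above, and it rose by 2.09 ± 0.44 (edgeR adjusted p = 0.00743). The collagen hydroxylase gene P4HA3 rose by 1.76 and MMP7, matrilysin, fell with a log2 fold change of -1.21 (edgeR adjusted p = 0.00988 and 0.0111). When the block was dropped, P4HA3 and MMP7 still passed, whereas VIM (0.0649), SNAI2 (0.0629), TWIST2 (0.13), TIMP1 (0.0694) and TGM2 (0.0562) did not. With single libraries left out, the call was lost for SNAI2 (0.101) without 2D replicates 1, 2 or 3 or 3D replicate 1 and for TWIST2 (0.205) without 2D replicates 1 or 3 or 3D replicates 1, 2 or 3. A left-out library also ended the call for TGM2 (0.0521) and P4HA3 (0.0633) without 2D replicate 1 and for MMP7 (0.0726) without 2D replicate 3 or 3D replicate 1. Mesenchymal calls were 1 without 2D replicate 1 and 2 without 2D replicate 2, 2D replicate 3, 3D replicate 1 or 3D replicate 2. Calls without the block, higher and lower, numbered 0 and 0 by edgeR (5 at an unadjusted p under 0.05) for the mesenchymal list and 1 and 1 for proteases and crosslinkers. For proteases and crosslinkers the number that rose was 1 without 2D replicate 1, and the number that fell 1, 1, 0 and 0 without 2D replicate 1, 2D replicate 2, 2D replicate 3 and 3D replicate 1.

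Actomyosin and filamin genes, of interest because the series title speaks of actin tension, held 8 higher and 1 lower of 34, with a median of 0.32. MYL12B and MYL12A encode regulatory light chains of non-muscle myosin. MYL12B had 2D values of 279, 226 and 262 CPM and 3D values of 539, 331 and 417 CPM, and MYL12A had 2D levels of 326, 248 and 274 CPM and 3D levels of 599, 346 and 434 CPM. Neither pair of groups overlapped, and the genes rose by 0.73 ± 0.13 and 0.68 ± 0.16 (edgeR adjusted p = 0.00274 and 0.0135). PFN1, profilin, and RHOC rose by 0.64 ± 0.13 and 0.72 ± 0.18 (edgeR adjusted p = 0.00529 and 0.0177), and ACTB by 0.53 ± 0.17 (edgeR adjusted p = 0.0477). The large genes FLNA, a filamin, and MYH9 were not called. FLNA had 2D levels of 1759.8, 2038 and 1651 CPM and 3D levels of 1799, 2571 and 1636 CPM and MYH9, the myosin heavy chain, had 2D values of 206, 246 and 238 CPM and 3D values of 188, 263 and 196 CPM. In both of these the groups overlapped, with log2 fold changes of 0.12 and -0.10 (edgeR adjusted p = 0.57 and 0.55). Without a term for the replicate number, MYL12B (0.0858), MYL12A (0.133), PFN1 (0.0679), RHOC (0.101) and ACTB (0.171) did not pass. Single libraries decided the call for MYL12A (0.0777) without 2D replicates 1 or 3 or 3D replicate 1 and for RHOC (0.0967) without 2D replicates 1 or 3 or 3D replicates 1 or 2. The call also ended for ACTB (0.23) without 2D replicates 1, 2 or 3 or 3D replicates 1 or 2. The list had 0 calls by edgeR without the block and 13 genes with an unadjusted p under 0.05. Without 2D replicate 1, 2D replicate 3, 3D replicate 1 or 3D replicate 2 the number that rose was 2, 2, 2 and 4, and without 3D replicate 3 it was 12. The median was 0.18 without 3D replicate 1 and 0.21 with the length and GC offset.

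YAP and TAZ targets follow cell spreading and tension. Beside 9.0% higher and 6.86% lower over all genes tested, 2 of these 21 targets rose and 2 fell. CCN2, the most used of them, had 2D levels of 2.31, 1.18 and 1.31 CPM and 3D levels of 3.10, 2.52 and 1.04 CPM and was not called (0.40 ± 0.32, edgeR adjusted p = 0.422). NT5E and IGFBP3 rose by 0.77 and 1.28, and PTPN14 and TEAD1 fell at log2 fold changes of -0.60 and -0.53 (edgeR adjusted p = 0.0426, 0.0451, 0.0101 and 0.0473). The list's median was -0.22 and turned to 0.03 with the length and GC offset, and it was -0.10 without 2D replicate 3 and -0.09 without 3D replicate 1. Among integrin and focal adhesion genes 1 of 22 rose, ILK (0.48, edgeR adjusted p = 0.0319), and 1 fell, the collagen receptor gene DDR1 (-0.72, edgeR adjusted p = 0.00758). The laminin chain genes LAMB1 and LAMB2 fell at log2 fold changes of -0.69 and -1.02 (edgeR adjusted p = 0.0123 and 0.0153). With the block left out, NT5E (0.165), IGFBP3 (0.204), PTPN14 (0.368), TEAD1 (0.242), ILK (0.154), DDR1 (0.211), LAMB1 (0.233) and LAMB2 (0.237) did not pass. Dropping 1 library took away the call for NT5E (0.163) without 2D replicates 1 or 2 or 3D replicates 1, 2 or 3 and for IGFBP3 (0.214) without 2D replicates 1, 2 or 3 or 3D replicates 1 or 2. It ended as well for PTPN14 (0.0648) without 2D replicate 3 or 3D replicate 1 and for TEAD1 (0.228) without 2D replicates 1 or 3 or 3D replicates 1, 2 or 3. Lost too were the calls for ILK (0.157) without 2D replicates 1 or 3 or 3D replicates 1 or 2 and for LAMB1 (0.0687) and LAMB2 (0.073) without 2D replicates 1 or 3. The numbers higher and lower without the block were 0 and 0 by edgeR (4 at an unadjusted p under 0.05) for YAP and TAZ targets and 0 and 0 (2) for integrins and focal adhesion.

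Metallothioneins, small proteins that bind zinc and copper, were higher in 3D. In the list of 8 measured genes that held them with their regulator and SLC30A1, which is not a metallothionein, 5 rose, 1 fell and the median was 1.00. MT2A (hg38 chr16:56608606-56609494) had 2D levels of 3202, 3534 and 2539 CPM and 3D levels of 7744, 8485 and 6429 CPM. The lowest 3D library was well above the highest 2D library, and MT2A rose by 1.29 ± 0.25 (edgeR adjusted p = 0.00505). MT1E had 2D values of 319.8, 384 and 244 CPM and 3D values of 597, 749 and 557 CPM and rose by 1.01 ± 0.27 (edgeR adjusted p = 0.0248). MT1X had 2D levels of 54.7, 87.3 and 51.2 CPM and 3D levels of 104, 159.7 and 121 CPM and rose by 0.99 ± 0.32 (edgeR adjusted p = 0.0483). MT1F and the pseudogene MT1L rose by 0.92 and 1.85 (edgeR adjusted p = 0.0234 and 0.00529). The member that fell was MTF1, the zinc-sensing activator of these genes (-0.56 ± 0.12, edgeR adjusted p = 0.0102). Metallothionein genes are near-identical copies within 1 cluster on chromosome 16, so reads may have been split between them, and each value is uncertain to that degree. Unblocked, MT2A and MT1L still passed, whereas MT1E (0.0628), MT1X (0.139), MT1F (0.0681) and MTF1 (0.104) did not. A single left-out library ended the call for MT1E (0.127) and MT1F (0.127) without 2D replicates 1 or 3 or 3D replicates 1 or 2 and for MT1X (0.211) without 2D replicates 1 or 3 or 3D replicates 1, 2 or 3. It was also lost for MTF1 (0.0654) without 2D replicate 3. Without 2D replicate 1, 2D replicate 3, 3D replicate 1 or 3D replicate 2 the number that rose was 2. Higher and lower genes without the block numbered 2 and 0 for the list.

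Metal response elements were searched as TGCNCNC in the same 200 bases and on both strands. They were in 3 of the 4 promoters of this list found in the table, those of MT2A, MT1X and SLC30A1, and in 42.3% of all promoters. Of these, only MT2A and MT1X are metallothionein genes. Matches numbered 2 or more in 2 of those 4 promoters and in 13.83% of all. Motifs of 2 other factors were searched in the same way, the grainyhead motif AACNGGTT in 1 of 10 tight junction and 0 of 8 desmosome promoters against 1.132% of all, and the ATF4 composite motif TGATGNAA in 2 of 25 PERK and ATF4 target promoters against 2.589% of all. The promoters of MT2A (chr16:56608384-56608583, forward strand, 6 matches) and MT1X (chr16:56682270-56682469, forward strand, 4 matches) are shown because they hold the most matches in the list, with each match in capitals.
MT2A: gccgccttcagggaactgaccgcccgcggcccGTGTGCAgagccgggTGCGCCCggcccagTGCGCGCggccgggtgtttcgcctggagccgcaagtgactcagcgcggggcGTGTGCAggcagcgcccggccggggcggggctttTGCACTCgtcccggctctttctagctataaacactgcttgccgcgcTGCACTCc
MT1X: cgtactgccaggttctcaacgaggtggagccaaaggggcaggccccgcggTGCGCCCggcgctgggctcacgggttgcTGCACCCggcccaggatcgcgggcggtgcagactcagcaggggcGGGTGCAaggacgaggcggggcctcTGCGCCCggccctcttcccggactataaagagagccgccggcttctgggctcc

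Glucocorticoid-responsive genes, read here because hydrocortisone was in the medium of both groups, showed 6 lower and 2 higher of 14. TSC22D3 (GILZ) had 2D levels of 247, 278 and 204 CPM and 3D levels of 121, 157 and 112 CPM and fell by 0.91 ± 0.17 (edgeR adjusted p = 0.00364). FKBP5, a co-chaperone of the receptor, had 2D values of 681, 661 and 592 CPM and 3D values of 476, 486 and 398 CPM and fell by 0.51 ± 0.10 (edgeR adjusted p = 0.00441). With the length and GC offset FKBP5 did not pass (-0.24, edgeR adjusted p = 0.144). MT2A is also on this list and rose. HSD11B2, the enzyme that inactivates cortisol, stood outside it, with 2D levels of 6.90, 7.22 and 4.43 CPM and 3D levels of 0.985, 1.66 and 1.29 CPM, and fell by 2.25 ± 0.24 (edgeR adjusted p = 1.59e-04). Clock genes showed 6 lower and 1 higher of 18, with a median of -0.49. USP2, an output of the clock, had 2D levels of 1.34, 1.63 and 1.08 CPM and 3D levels of 0.119, 0.156 and 0.253 CPM and fell by 2.93 ± 0.44 at low levels (edgeR adjusted p = 0.00127). PER2, NR1D2 and NFIL3 fell at log2 fold changes of -0.90, -1.09 and -0.74 (edgeR adjusted p = 0.00156, 0.00869 and 0.0214). Fitted without the pairing, TSC22D3, HSD11B2 and USP2 still passed, whereas FKBP5 (0.0848), PER2 (0.068), NR1D2 (0.0521) and NFIL3 (0.193) did not. Leaving out 1 library at a time ended the call for NR1D2 (0.0568) without 2D replicate 3 and for NFIL3 (0.103) without 2D replicates 1 or 3 or 3D replicates 1 or 2. Without 2D replicate 1 or 3D replicate 1, 3 glucocorticoid-responsive genes fell, and 3 clock genes fell without 2D replicate 1, 2D replicate 3 or 3D replicate 1. Numbers higher and lower with no block were 1 and 1 for glucocorticoid-responsive genes and 0 and 1 for clock genes.

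Oxidative stress genes under NRF2 held 5 lower and 1 higher of 22. AKR1B10, TXNRD1 and GPX2 fell (-1.18, -0.55 and -1.40), and TXN, thioredoxin, had 2D values of 172, 138 and 157 CPM and 3D values of 323, 235 and 309 CPM and rose by 0.88 ± 0.12 (edgeR adjusted p = 0.00136, 0.00856, 0.0162 and 7.43e-04). Proteasome subunits held 10 higher and 0 lower of 31, with a median of 0.34, among them PSMA5, PSMA7 and PSMA3 (0.70, 0.65 and 0.56, edgeR adjusted p = 0.0031, 0.00697 and 0.00403). Of 21 heat shock genes HSPE1 and HSPA8 rose, by 0.75 and 0.48 (edgeR adjusted p = 0.00111 and 0.0233). Over all genes tested 9.0% rose. Lysosome genes held 5 lower and 1 higher of 26. CTSD, cathepsin D, had 2D levels of 1449, 1778 and 1122 CPM and 3D levels of 614, 1112 and 778 CPM and fell by 0.81 ± 0.16 (edgeR adjusted p = 0.00574). PSAP and CTSA fell with it (-0.71 and -0.38), while NPC2, a cholesterol carrier of the lysosome, had 2D levels of 300.3, 337 and 296 CPM and 3D levels of 607, 680.2 and 600.0 CPM and rose by 1.01 ± 0.19 (edgeR adjusted p = 0.009, 0.0285 and 0.00382). Under the fit that ignores pairs, AKR1B10 and NPC2 still passed, whereas TXNRD1 (0.315), GPX2 (0.122), TXN (0.0511), PSMA5 (0.0707), PSMA7 (0.087), PSMA3 (0.262), HSPE1 (0.0649), HSPA8 (0.252), CTSD (0.0858), PSAP (0.13) and CTSA (0.271) did not. With single libraries left out, the call was lost for GPX2 (0.0918) without 2D replicate 1 or 3D replicate 1 and for HSPA8 (0.112) without 2D replicates 1 or 3 or 3D replicates 1 or 2. A left-out library also ended the call for CTSA (0.124) without 2D replicates 1, 2 or 3 or 3D replicate 1. Proteasome calls were 3 without 2D replicate 1, 2D replicate 3 or 3D replicate 1. Calls without the block, higher and lower, numbered 0 and 1 for NRF2 genes, 0 and 0 by edgeR (10 at an unadjusted p under 0.05) for the proteasome, 0 and 0 (1) for heat shock genes and 1 and 0 for lysosome genes. The number of NRF2 genes that fell was 2, 3 and 2 without 2D replicate 1, 2D replicate 3 and 3D replicate 1, and that of lysosome genes 2, 3, 2 and 2 without 2D replicate 1, 2D replicate 2, 2D replicate 3 and 3D replicate 1.

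Targets of p53 showed 6 lower and 1 higher of 24, including SESN2, TP53INP1 and BBC3 (PUMA) with log2 fold changes of -0.72, -1.01 and -0.81 (edgeR adjusted p = 0.00532, 0.0162 and 0.0163). Of 29 interferon and MHC class I genes 3 fell, IFIT2 (-1.71), OAS1 (-0.72) and STAT2 (-0.53), and 0 rose (edgeR adjusted p = 9.79e-04, 0.00294 and 0.0298). Inflammatory genes went both ways, 3 higher and 2 lower of 24, against 9.0% and 6.86% of all genes tested. IL1RN, the antagonist of the IL-1 receptor, had 2D values of 6.33, 6.42 and 11.1 CPM and 3D values of 1.45, 1.87 and 3.24 CPM and fell by 1.90 ± 0.24 (edgeR adjusted p = 4.03e-04). BIRC3 fell with a log2 fold change of -0.83, while IL18 and CSF3 rose by 0.87 and 0.78 (edgeR adjusted p = 0.0206, 0.00226 and 0.0104). Without the replicate block, IFIT2 still passed, whereas SESN2 (0.0653), TP53INP1 (0.179), BBC3 (0.0941), OAS1 (0.178), STAT2 (0.168), IL1RN (0.0686), BIRC3 (0.212), IL18 (0.12) and CSF3 (0.159) did not. Single libraries decided the call for TP53INP1 (0.0932) without 2D replicates 1 or 3 or 3D replicate 1 and for BBC3 (0.0884) without 2D replicates 1 or 2 or 3D replicate 1. The call also ended for STAT2 (0.121) and BIRC3 (0.126) without 2D replicates 1 or 3 or 3D replicates 1, 2 or 3 and for CSF3 (0.0617) without 2D replicates 1 or 3 or 3D replicate 2. The numbers higher and lower without the block were 0 and 1 for p53 targets, 0 and 1 for interferon and MHC genes and 0 and 0 by edgeR (7 at an unadjusted p under 0.05) for inflammatory genes. Lower p53 targets numbered 2, 3 and 3 without 2D replicate 1, 2D replicate 2 and 3D replicate 1, and higher inflammatory genes 1, 1 and 1 without 2D replicate 1, 2D replicate 3 and 3D replicate 2.

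Metabolic lists held few calls, against 9.0% higher and 6.86% lower over all genes tested. In cholesterol synthesis 2 of 23 rose, EBP and HSD17B7 (0.40 and 0.60), and TM7SF2 fell (-0.55, edgeR adjusted p = 0.0317, 0.0108 and 0.00801). In fatty acid synthesis 1 of 13 changed, LPIN1, a lipin phosphatase, which had 2D levels of 147, 179.6 and 155 CPM and 3D levels of 69.3, 107 and 84.2 CPM and fell by 0.90 ± 0.11 (edgeR adjusted p = 4.22e-04). ACSL1, an acyl-CoA synthetase outside that list, had 2D levels of 664, 723 and 509 CPM and 3D levels of 368, 348 and 248 CPM and fell by 0.98 ± 0.11 (edgeR adjusted p = 1.62e-04). Glycolysis and hypoxia genes held 4 higher and 2 lower of 27. ANKRD37, PFKP and BNIP3 rose by 0.93, 0.50 and 0.54, and the glucose transporter gene SLC2A1 fell with a log2 fold change of -0.95 (edgeR adjusted p = 0.00239, 0.0151, 0.0247 and 0.00374). GAPDH had a log2 fold change of 0.42 ± 0.21 and was not called (edgeR adjusted p = 0.189). In the fit without the block, LPIN1 and ACSL1 still passed, whereas EBP (0.122), HSD17B7 (0.112), TM7SF2 (0.0736), ANKRD37 (0.115), PFKP (0.0986), BNIP3 (0.106) and SLC2A1 (0.0765) did not. Dropping 1 library took away the call for EBP (0.135) and BNIP3 (0.124) without 2D replicates 1 or 3 or 3D replicates 1 or 2 and for HSD17B7 (0.075) and PFKP (0.081) without 2D replicates 1 or 3 or 3D replicate 1. Higher and lower genes without the block numbered 0 and 0 by edgeR (5 at an unadjusted p under 0.05) for cholesterol synthesis, 0 and 1 for fatty acid synthesis and 0 and 0 (7) for glycolysis and hypoxia. Higher glycolysis and hypoxia genes numbered 1, 1, 1 and 2 without 2D replicate 1, 2D replicate 3, 3D replicate 1 and 3D replicate 2.

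Long noncoding RNAs that stay in the nucleus were lower in 4 of 11 and higher in 1, with a median of -0.73. MALAT1 had 2D values of 343, 147 and 215 CPM and 3D values of 96.1, 79.3 and 64.0 CPM and fell by 1.55 ± 0.29 (edgeR adjusted p = 0.00399). NEAT1, the scaffold of paraspeckles, had 2D levels of 109, 87.7 and 80.6 CPM and 3D levels of 22.4, 46.5 and 35.5 CPM and fell by 1.50 ± 0.30 (edgeR adjusted p = 0.00654). TUG1 and NORAD fell at log2 fold changes of -0.73 and -0.92 (edgeR adjusted p = 0.0176 and 0.0183). NORAD is mainly cytoplasmic by general knowledge although it stood on this list. With the length and GC offset the median was -0.43, with 4 lower and 1 higher. It was -0.44 over the 10 genes measured with a stricter filter, with counts divided by transcripts and with the 6 libraries alone. The mitochondrial share given above moved with the culture beside these RNAs, and its part was not tested. When the block was dropped, MALAT1 still passed, whereas NEAT1 (0.0562), TUG1 (0.0711) and NORAD (0.145) did not. A single left-out library ended the call for TUG1 (0.11) without 2D replicates 1 or 3 or 3D replicates 1 or 2 and for NORAD (0.0969) without 2D replicates 1 or 3 or 3D replicate 1. Without 2D replicate 1, 2D replicate 3 or 3D replicate 1, 2 of these RNAs fell. Numbers higher and lower with no block were 0 and 1 for these RNAs.

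Among genes with a mean count of at least 100 and groups apart, the changes of greatest size held several genes outside the lists, given here with LBH, which was listed by name and not by this rule. NOX5 (chr15:68930525-69062743, overlapping SPESP1), a calcium-regulated NADPH oxidase, had 2D levels of 3.18, 3.01 and 2.56 CPM and 3D levels of 18.4, 14.6 and 7.09 CPM and rose by 2.13 ± 0.32 (edgeR adjusted p = 0.00115). LBH, a transcription cofactor of limb and heart had 2D values of 0.211, 0.293 and 0.0277 CPM and 3D values of 2.59, 3.88 and 0.426 CPM. Its replicate 3 was low in both cultures, 3D replicate 3 lay close to the 2D range, and it rose by 3.58 ± 0.71 (edgeR adjusted p = 0.00557). SCG5, a neuroendocrine secretory chaperone, had 2D levels of 0.0744, 0.599 and 0.387 CPM and 3D levels of 5.26, 4.51 and 0.979 CPM and rose by 3.05 ± 0.76 (edgeR adjusted p = 0.0179). KANK4, LINC02777, KCNJ15 and CHRNA9 rose by 2.24, 2.13, 1.81 and 1.75 (edgeR adjusted p = 0.036, 0.00653, 0.00967 and 0.0114). In NOX5, SCG5, KANK4, LINC02777, KCNJ15, CHRNA9, LBH and TGM2 the lowest 3D library was replicate 3. SFTA1P, a long noncoding RNA, had 2D levels of 2.41, 1.03 and 2.13 CPM and 3D levels of 7.68, 3.67 and 8.88 CPM and did not follow that order (1.84 ± 0.27, edgeR adjusted p = 9.86e-04). Without a term for the replicate number, NOX5, LBH, LINC02777 and SFTA1P still passed, whereas SCG5 (0.082), KANK4 (0.0972), KCNJ15 (0.0508) and CHRNA9 (0.0628) did not. Leaving out 1 library at a time ended the call for SCG5 (0.0784) without 2D replicates 1 or 2 or 3D replicate 1 and for KANK4 (0.132) without 2D replicates 1, 2 or 3 or 3D replicates 1 or 2. It ended as well for KCNJ15 (0.05) without 2D replicate 1 and for CHRNA9 (0.0827) without 2D replicate 1 or 3D replicates 1 or 2.

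Lower in 3D among these were the receptor gene NOTCH3, with 2D values of 5.51, 8.01 and 5.12 CPM and 3D values of 0.581, 2.56 and 0.948 CPM (-2.36 ± 0.27, edgeR adjusted p = 2.01e-04), and the tyrosine kinase gene FGR, with 2D levels of 2.13, 3.06 and 1.91 CPM and 3D levels of 0.225, 0.527 and 0.490 CPM (-2.62 ± 0.46, edgeR adjusted p = 0.00312). CYP4F3 and ADGRF1 fell as well (-2.37 and -2.34, edgeR adjusted p = 0.00198 and 0.00904). The genes with the smallest p included AQP3, the glycerol and water channel, with 2D levels of 72.8, 94.5 and 106 CPM and 3D levels of 16.3, 29.1 and 38.0 CPM and lower by a log2 fold change of -1.76 ± 0.17 (edgeR adjusted p = 9.76e-05). SORT1, a sorting receptor, had 2D values of 20.8, 22.6 and 20.3 CPM and 3D values of 5.75, 10.7 and 8.45 CPM and fell by 1.39 ± 0.15 (edgeR adjusted p = 1.62e-04). The repressor gene BCL6 and PRXL2A fell at log2 fold changes of -1.21 and -0.97 (edgeR adjusted p = 1.58e-04 and 1.59e-04). On the higher side GTF2A2, a subunit of the general factor TFIIA, had 2D levels of 61.9, 48.7 and 52.0 CPM and 3D levels of 122, 107 and 137 CPM and rose by 1.17 ± 0.10 (edgeR adjusted p = 6.98e-05). LINC00460 and AC125611.3, both noncoding, rose by 1.55 and 0.92 (edgeR adjusted p = 9.58e-05 and 1.08e-04). With the block left out, NOTCH3, FGR, CYP4F3, AQP3, SORT1, BCL6, PRXL2A, GTF2A2, LINC00460 and AC125611.3 still passed, whereas ADGRF1 (0.164) did not.

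Runs without both timepoint 2 libraries of replicate 1, 2 or 3 ended 111, 55 and 65 of the 200 named calls. The 6 libraries alone with no block ended 95. Genes lost in these runs are not listed here. The remaining choices ended at most 21 of the named calls, given here with the adjusted p of each fit in parentheses, which is edgeR's throughout. With all 18 libraries KRT80 (0.0861), KRT13 (0.0652), POLR1A (0.0603), DDIT3 (0.198), FOS (0.182), SPRY2 (0.054), DUSP10 (0.197), FN1 (0.0795), NT5E (0.0859), IGFBP3 (0.0789), TEAD1 (0.0754), BBC3 (0.147), TM7SF2 (0.0743), KANK4 (0.0734) and FAP (0.0782) did not pass. The library totals of the file headers ended the calls of KRT81 (0.108), RACK1 (0.0577), EIF3E (0.0524), HSPA8 (0.0642), MANF (0.0755), KDELR3 (0.0539), AREG (0.156), NT5E (0.145), IGFBP3 (0.065), ACTB (0.117), ILK (0.107), TWIST2 (0.166), MT1X (0.0615), PFKP (0.0697), BNIP3 (0.0641), HSD17B7 (0.0582), EBP (0.181) and FAP (0.0688). With upper-quartile factors KRT81 (0.0645), RPLP0 (0.0506), RACK1 (0.0621), ACTB (0.0718), ILK (0.0526), TWIST2 (0.0516), MT1X (0.0607) and EBP (0.0514) did not pass, and with RLE factors KRT81 (0.0514), RACK1 (0.0517), ACTB (0.0561) and MT1X (0.0533). The length and GC offset ended the calls of PATJ (0.108), UQCRB (0.0894), SPRY2 (0.0713), MTF1 (0.291), FKBP5 (0.144) and TP53INP1 (0.0827). Without a filter on low counts the calls of POLR1A (0.151), SPRY2 (0.0637), TWIST2 (0.113), CTSA (0.066) and EBP (0.0828) were lost, with a stricter one ACTB (0.0511), with counts divided by transcripts KRT81 (0.0879), ACTB (0.0667) and PECAM1 (0.0535), and with the 6 libraries and the block TWIST2 (0.0637).

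At timepoint 1, the same contrast gave 0 calls in either direction by edgeR (0.0% each way), and 388 genes had an unadjusted p under 0.05. Whether the culture difference at timepoint 2 differed from that at timepoint 1 was tested as an interaction in the same fit. It passed for 243 genes, 144 with a higher difference (0.775%) and 99 with a lower one (0.532%). Without the block 0 genes passed by edgeR and 1624 had an unadjusted p under 0.05, so these calls rest on the pairing. They also moved with other choices: 29 passed with all 18 libraries (26 higher, 3 lower), 560 with the length and GC offset and 1023 by DESeq2. The count was 35, 154 and 59 without 2D replicates 1, 2 and 3 and 89, 91 and 121 without 3D replicates 1, 2 and 3. ELF3 had a 2D mean of 81.5 ± 38.3 CPM and a 3D mean of 80.0 ± 20.6 CPM (SD, n = 3) at timepoint 1, and its interaction was -3.80 ± 0.41 on the log2 scale (edgeR adjusted p = 0.00265). In 2D it changed by -2.03 ± 0.28 from timepoint 1 to 2, and in 3D by -5.84 ± 0.34 (edgeR adjusted p = 2.97e-04 and 1.23e-07), so it was lower at timepoint 2 in both cultures and more so in 3D. KRT15 took another course. It had a 2D mean of 154 ± 121 CPM and a 3D mean of 150.2 ± 104 CPM at timepoint 1, changed by 2.26 ± 0.28 in 2D and by 0.33 ± 0.27 in 3D (edgeR adjusted p = 1.44e-04 and 0.391), and its interaction was -1.93 ± 0.38 (edgeR adjusted p = 0.0297). FOSB had a 2D mean of 29.6 ± 8.76 CPM and a 3D mean of 49.3 ± 17.3 CPM at timepoint 1, and its interaction was -2.93 ± 0.26 (edgeR adjusted p = 3.78e-04).

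From timepoint 1 to 2, 6.59% of all genes rose and 7.06% fell in 2D, and 14.8% rose and 13.6% fell in 3D. Over the tight junction list the median change was -0.84 in 2D and -1.20 in 3D, with 9 and 13 genes lower and 6 negative interactions. Epithelial transcription factors changed by a median of -0.15 in 2D and -0.86 in 3D, with 5 negative interactions. For G1-S genes the medians were -0.56 in 2D, where 21 genes fell, and 0.02 in 3D, where 1 fell and 6 rose, with 7 positive interactions. Mitosis genes had medians of -0.84 and -0.13, with 13 and 0 genes lower and 5 positive interactions. GINS2 had a 2D mean of 9.97 ± 2.86 CPM and a 3D mean of 9.94 ± 2.53 CPM at timepoint 1 and changed by -0.73 ± 0.12 in 2D and 0.67 ± 0.12 in 3D (edgeR adjusted p = 0.00119 and 0.00115). BIRC5 changed by -1.19 ± 0.11 in 2D and by -0.02 ± 0.11 in 3D (edgeR adjusted p = 1.36e-05 and 0.936). Ribosomal protein genes had medians of 0.12 in 2D and 1.14 in 3D, where 73 rose. Mitochondrially encoded genes had -0.02 and -0.83, with 10 lower in 3D. Both lists also differed between replicates at timepoint 1. Ribosomal protein genes had median log2 CPM of -0.15, -0.602 and 0.787 in 2D there, relative to the mean of 2D timepoint 1. In 3D they had -0.278, -0.655 and 0.825. Mitochondrially encoded genes had 0.276, 0.121 and -0.475 in 2D and 0.268, -0.213 and -0.885 in 3D. What set replicate 3 apart was not tested. For these 2 lists 0 interactions passed by edgeR or limma-voom, 69 ribosomal protein and 8 mitochondrially encoded genes had an unadjusted p under 0.05, and DESeq2 called 8 and 2. RPL27 gave 1.30 ± 0.41 (edgeR adjusted p = 0.139) and MT-ATP8 -1.13 ± 0.36 (edgeR adjusted p = 0.144). For SNAI2 and LBH the 3D mean was above the 2D mean at timepoint 1 already. The interaction did not pass for SNAI2, with a 2D mean of 23.2 ± 7.31 CPM and a 3D mean of 50.6 ± 19.0 CPM (-0.13, edgeR adjusted p = 0.885), and for LBH, with a 2D mean of 0.354 ± 0.180 CPM and a 3D mean of 2.25 ± 1.51 CPM (0.72, edgeR adjusted p = 0.727).

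**Figure D5:**
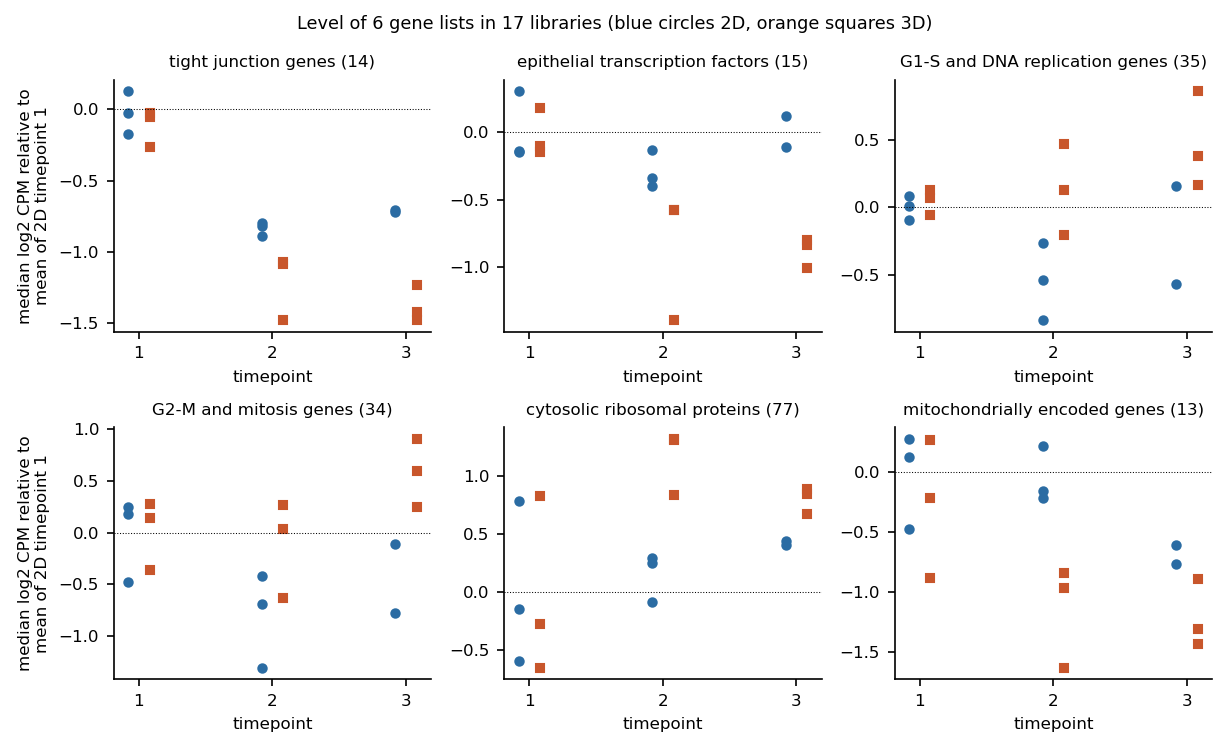
Median log2 CPM of 6 gene lists in each of 17 libraries, relative to the mean of 2D timepoint 1, at the 3 timepoints (blue circles 2D, orange squares 3D, number of genes in parentheses). At timepoint 2 the 3D libraries of the tight junction list lie between -1.48 and -1.07 and the 2D libraries between -0.89 and -0.80, while at timepoint 1 the cultures overlap.

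At timepoint 3, with n = 2 in 2D, 827 genes rose (4.45%) and 986 fell (5.3%). Timepoints 2 and 3 share no libraries in this contrast. Of the timepoint 2 calls 1084 were also called at timepoint 3 in 1 direction, 36.76% of the timepoint 2 calls and 59.79% of the 1813 timepoint 3 calls, and 1 was called in the opposite direction. The sign was shared by 2831 of the 2949. A difference between these timepoints was not shown for single genes: 0 interactions passed by edgeR, 1399 had an unadjusted p under 0.05, limma-voom gave 0, and DESeq2 gave 41. ELF3 had a log2 fold change of -4.12 at timepoint 3, CLDN4 of -3.22, CKS2 of 1.33 and GINS2 of 1.30 (edgeR adjusted p = 3.59e-05, 3.47e-04, 6.71e-04 and 1.92e-04). ATF3 had a 2D mean of 75.9 ± 6.08 CPM and a 3D mean of 3.52 ± 0.226 CPM there (SD, n = 2 and n = 3), a log2 fold change of -4.29 (edgeR adjusted p = 1.41e-05), and DDIT3 had a 2D mean of 36.5 ± 3.74 CPM and a 3D mean of 8.73 ± 0.931 CPM (-2.10, edgeR adjusted p = 3.59e-05). Of the PERK and ATF4 targets 20 were lower at timepoint 3 and 10 at timepoint 2, a difference of counts that was not tested.

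The authors' deposited table for timepoint 2 holds 13677 genes, of which 489 had an adjusted p under 0.05 there, 201 higher and 288 lower in 3D. All 489 were tested here and passed in the same direction, but both rest on the same libraries. In the authors' deposited table the log2 fold change was -3.87 for ELF3, -3.63 for CLDN4, 1.56 for CKS2 and 1.22 for RPL27.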

How the data were processed

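Poly-A RNA of 18 MCF10A libraries in 6 groups was sequenced, and 6 libraries, 3D and 2D at timepoint 2, carry this comparison. Per the submitters' processing notes, STAR 2.7.1a, HOMER, edgeR and limma were used on hg38. Which annotation release, strand setting or filters applied in counting is not given in these sources. The authors deposited gene counts for 60662 genes without normalisation. Their sums exceed the library totals of the file headers 4.96 to 5.73 times at timepoint 2, so counts are not read as depth, no counting intervals are given, and CPM is not compared between genes. The authors' deposited table for timepoint 2 gives log2 fold changes, scores of a moderated test and p-values with adjusted p-values. No sample column was left unused (0).

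Counts were tested in R 4.3.3 with edgeR 4.0.16: filterByExpr with a minimum count of 10 (18592 genes kept), TMM scaling, and the quasi-likelihood F test with the replicate number as a block, over 17 libraries. One 2D library of timepoint 3, replicate 1, was dropped since only the raw counts are listed for it. A call is a Benjamini-Hochberg adjusted p under 0.05, and the SE was taken as the absolute log2 fold change over the root of F. The numbers pair the libraries: same-numbered libraries deviated together at timepoint 2, with correlations of 0.349, 0.354 and 0.186, and each number carries 1 date. The common dispersion was 0.0363 with the block and 0.0686 without. The fit was tested on simulated data. It recovered 8 of 57 genes changed 1.5-fold, 33 of 73 changed 2-fold and 58 of 70 changed 4-fold, with 10 false calls. All other genes of the 18478 simulated had no culture difference at timepoint 2. That changed share was far below the 15.9% called in the real contrast, and the adjusted p depends on it. These rates are therefore not those of the real fit. A gene without a call may still have changed.

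The members and gene lists were chosen with earlier results of these data known. The list sizes are counts over all genes tested, without a set test, and lists share members. Genes were named by a rule: up to 10 each way with the greatest change, and with the smallest p, among calls with groups apart, 1 direction in all pairs and a mean count of at least 100; up to 4 per list with the smallest p; fixed genes; up to 5 each way with the greatest interaction; and up to 5 called genes each way with the highest counts. NR4A2, FOS, MT1E, HBEGF, MT1X, STT3A, ATF4, SDHA, EGFR, ATP5F1B, JUN and EGR1, with members named without values, were named after their values were seen. Some genes that the rule or the lists hold are counted but not reported here. Promoters are from RefSeq GRCh38.p14, 200 bases before the start.

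Alternatives were DESeq2 1.42.0, limma-voom (limma 3.58.1), RLE and upper-quartile factors, header totals, no or a stricter filter, all 18 libraries, the 6 libraries alone, no block, counts divided by transcripts, an offset for length and GC content, a minimum fold of 2, and runs without each library or pair.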

Additional observations from a re-analysis of the deposited data

Results flagged for a closer look

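Of 225 named genes, 61 had a culture difference that was not the same at timepoints 1 and 2 by the interaction test in edgeR with the replicate block. The values are the difference at timepoint 2 minus that at timepoint 1 on the log2 scale, with the edgeR adjusted p in parentheses, and many of these genes were named for their change at timepoint 2 or for this interaction. Tight junction genes gave CLDN4 -2.83 (0.00871), OCLN -2.99 (0.0186), CLDN1 -1.51 (0.00349), TJP3 -2.34 (0.0325), CGN -1.72 (0.0198) and CLDN7 -0.72 (0.0291). Desmosome genes gave DSG3 -1.57 (0.0322), DSC2 -1.51 (0.0391), PPL -1.38 (0.0232) and DSP -0.84 (0.0294). Epithelial transcription factors and keratins gave ELF3 -3.80 (0.00265), GRHL3 -2.22 (0.0151), OVOL1 -1.62 (0.0488), SOX9 -1.0 (0.0433), KRT15 -1.93 (0.0297) and KRT16 -1.64 (0.0386). Replication and repair genes, with the gene that overlaps PCLAF, gave GINS2 1.40 (0.00349), PCLAF 1.29 (0.00349), AC087632.1 1.11 (0.00417), TK1 1.04 (0.00871), FEN1 0.70 (0.0294), PCNA 0.84 (0.0447) and RDM1 1.66 (0.0408). Mitosis and tubulin genes gave CKS2 1.66 (0.00417), CKS1B 1.28 (0.00871), BIRC5 1.18 (0.00417), UBE2C 1.28 (0.0144), TUBA1B 1.12 (0.00604) and TUBA1B-AS1 1.16 (0.003). Genes of mitochondria, the translocon and stress that were higher gave MRPL17 0.90 (0.0257), MRPL18 0.69 (0.0322), MRPL33 0.89 (0.03), HSPE1 0.85 (0.0232), SEC61G 1.08 (0.0388), OSTC 1.04 (0.0312), EIF4EBP1 1.00 (0.0307), TXN 0.84 (0.0325) and ANKRD37 1.12 (0.0297). Immediate early, signalling, clock and immune genes gave FOSB -2.93 (3.78e-04), ATF3 -2.38 (0.00871), NRG2 -2.05 (0.00871), AKR1B10 -1.41 (0.0218), USP2 -3.19 (0.0232), PER2 -0.95 (0.0388), IFIT2 -1.50 (0.0459), IL1RN -1.55 (0.0332), LPIN1 -0.84 (0.0257) and CD14 -1.07 (0.0487). The other genes with a negative value were AQP3 -1.64 (0.00824), NOTCH3 -2.15 (0.0151), HSD11B2 -2.14 (0.0111), BCL6 -0.87 (0.03), PRXL2A -0.87 (0.0136), ACSL1 -0.99 (0.00871) and SORT1 -1.28 (0.0136). The other genes with a positive value were TGFBI 1.17 (0.0198), NOX5 2.16 (0.0373), SFTA1P 1.76 (0.0378), LINC00460 1.49 (0.0075), GTF2A2 1.12 (0.00417) and AC125611.3 0.90 (0.00802). Without the replicate block 0 interactions passed by edgeR, so each of these values rests on the pairing. Genes that overlap on the genome, such as PCLAF with AC087632.1 and TUBA1B with TUBA1B-AS1, may share reads.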

How the results depend on the processing

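The number of genes called at timepoint 2 was 2949. It was 659 when a fold of at least 2 was also asked, 277 without the replicate block, 808 with the 6 libraries alone and no block, and 499 to 2680 when 1 library or 1 pair was left out. Under the other alternatives it was within 1.5 times of 2949, from 2755 with no filter on low counts to 4267 with the 6 libraries and the block. Library totals of the file headers gave 914 higher and 2863 lower genes, with a median over all genes of -0.236. The interaction of timepoints 2 and 1 passed for 243 genes, for 134 with a fold of at least 2, 0 without the block, 29 with all 18 libraries, 1023 by DESeq2, 560 with the length and GC offset, and 21 to 154 with 1 library or pair left out. The interaction of timepoints 3 and 2 passed for 0 genes, for 6 with no filter and for 41 by DESeq2. The cause of these moves was not tested.

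Medians of the gene lists were taken over the median of all genes, and 35 of 49 kept their sign under all alternatives run. Of the 14 that turned, YAP and TAZ targets did so with the length and GC offset, the fibroblast list without 2D replicate 1 or 3D replicate 3 and the endothelial list under 9 alternatives; the others were the keratin, basal marker, aminoacyl-tRNA synthetase, vesicle coat, MAP kinase feedback, NRF2, integrin, matrix protease, cholesterol, inflammatory and histone lists. With the length and GC offset the desmosome median was -0.459 (main -0.607) and the oxidative phosphorylation median 0.608 (main 0.701). With 1 library or pair left out, the medians ran from 0.664 to 0.826 for G1-S, 0.504 to 0.886 for mitosis, 0.852 to 1.209 for cytosolic ribosomal, 0.55 to 0.866 for mitochondrial ribosomal, 0.536 to 0.857 for oxidative phosphorylation, -0.477 to -0.135 for immediate early and 0.813 to 1.309 for metallothionein genes. Of 200 named genes that were called, 0 changed direction under any alternative. That count was nearly fixed in advance. Many of these genes were named for moving in 1 direction in all pairs, and the alternatives reuse the same libraries. It is therefore no separate support. The replicate block mattered most: 69 of the 200 still passed without it, and the pairing check stands with the processing. DESeq2 and limma-voom kept 200 each, and the header totals kept 179. Leaving out 1 library kept 135 to 184, leaving out 1 pair kept 89 to 145, and 79 genes lost the call without at least 1 library. The block changed no direction of a named call either, which the same choice of genes favours. Depth could not be read from the counts, so genes at a few CPM are limited by it to an unknown degree.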
